A study of Mus musculus with 4 samples.

Results

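The genes described here encode the numbered Kelch and ASB proteins, which carry substrates to cullin ubiquitin ligases. They were chosen by symbol among the protein-coding genes of chromosomes 1 to 19 in the GENCODE M21 annotation, as genes named Klhl, Kbtbd or Asb followed by a number. There were 55 members among 20807 such genes, made up of 32 Klhl, 9 Kbtbd and 14 Asb genes. No measured value entered the choice.

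Cullin ligases attach ubiquitin to proteins that an interchangeable adaptor brings to them. Klhl and Kbtbd proteins bind CUL3 through a BTB domain and hold the substrate with Kelch repeats, whereas Asb proteins bind Elongin B and C and CUL5 through a SOCS box and hold the substrate with ankyrin repeats. In skeletal muscle several of these adaptors guard the thin filament or the Z-disc, and in humans KLHL40, KLHL41 and KBTBD13 are genes of nemaline myopathy, a weakness with rod-shaped protein deposits in the fibres.

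H3K27ac, a histone acetylation found at active promoters and enhancers, was mapped by ChIP-seq in gastrocnemius tissue, a calf muscle, taken from adult females of the hybrid mouse strain B6CASTF1/J at an age of 2 months. There was 1 group with 2 biological replicates, each a pool of 2 tissue samples with 2 technical libraries, so no groups of samples were compared and no test was run. The authors' 4 peak lists on mm10 came from replicate 1, from replicate 2, from both pooled, and, as the replicated list, from both. Values below are from the replicated list unless a replicate is named, and the parental chromosomes of the hybrid are not told apart in these lists.

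Reads were not analysed here and the depth behind each list is unknown. The 70953 regions of replicate 1 spanned 85.1 Mb, whereas the 86937 of replicate 2 spanned 117.8 Mb, and the acetylated length defined below was greater in replicate 2 at 47 members, greater in replicate 1 at 3 and equal at 5. The tissue label was set beside marker genes: all 6 skeletal fibre markers had an acetylated start, with 8610 to 10000 bp around it, and the 4 cardiac, 3 neuronal and 3 testis germ cell markers had 0 bp. All 4 endothelial markers had an acetylated start too, with 5777 to 10000 bp, so markers of another cell type accompany those of the fibres. Of the macrophage markers 2 of 4 had one, but only 1 of 4 in replicate 2, where Cd68 was not called. Of the adipocyte markers only Fabp4 had one, and not Adipoq, Plin1 or Cidec. In a mixed tissue a region used in few cells and a weakly acetylated region in many cells cannot be told apart.

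A promoter region below is a listed region no more than 1000 bp from the start of a protein-coding transcript. It was present at 50 of the 55 members (90.9%), against 62.1% of all autosomal protein-coding genes. Both replicates had one at 49 members, against 59.5% of all genes, no member had one in exactly 1 replicate, against 2.77%, and 6 had none in either. The acetylated length is the number of bp under regions from 5000 bp before to 5000 bp after a start, 10000 at most, at the start where it is largest. Its median over the members was 2420 bp, with 1971 bp in the list of replicate 1 and 2319 bp in that of replicate 2. Over all genes it was 1524 bp, with 1241 and 1517 bp in the same single lists.

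The members ranged over the whole scale. At least 5000 bp were acetylated at 15 members, against 13.1% of all genes, and 12 of these 15 were among the 15 adaptors known from striated muscle. By replicate 1 alone it was 12 members, 10 of them muscle adaptors, against 8.69% of all genes. No base was acetylated within 5000 bp of a start at 3 members, against 34.2% of all genes. By subfamily, 29 of 32 Klhl, 9 of 9 Kbtbd and 12 of 14 Asb genes had a promoter region. Their median lengths were 2055.5, 2062 and 3873 bp.

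**Figure D1:**
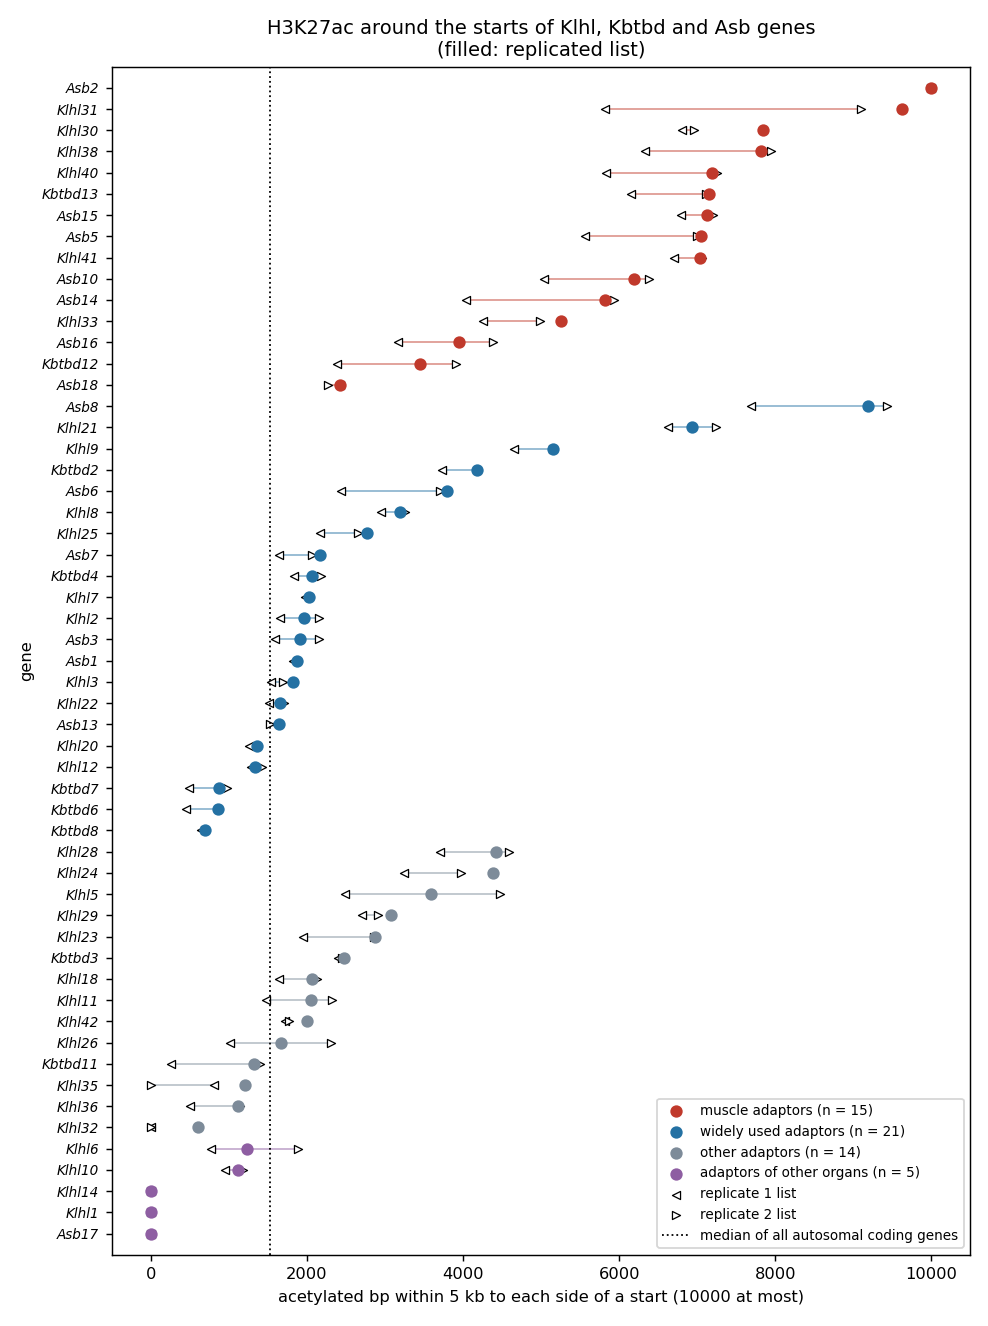
Acetylated bp in the 10000 bp around a start (x axis) for the 55 members (y axis), grouped by role, with the replicated list as filled points, the 2 single-replicate lists as open triangles and the median of all genes (1524 bp) as a dotted line. The 15 muscle adaptors lie between 2420 and 10000 bp, and 3 adaptors of other organs lie at 0.

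The muscle list held 17 genes by background knowledge, of which 15 lie on chromosomes 1 to 19. Their starts had a promoter region in 15 of 15 in both replicates, and the median acetylated length was 7050 bp, against 5820 bp by replicate 1 and 7000 bp by replicate 2 alone. The other 40 members had one in 35, and their median was 1937.5 bp (1614.5 and 2054 bp). The ranges overlapped, from 2420 to 10000 bp for the muscle adaptors and from 0 to 9189 bp for the others. The list was drawn up with earlier results of these data known, so the gap between these medians is a description. It was not checked against expression, so members outside it may also act in muscle.

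Promoter sequences of 9 members are printed here, because among the members MEF2 matches were found in muscle adaptors and in no other. RefSeq promoters of 300 bases, from 250 before to 50 after the start, were found for 46 members, 13 of them muscle adaptors. For each gene the stretch from 130 bases before to 50 after the RefSeq start is given 5′ to 3′ on the gene's strand, build GRCm38.p6 (mm10). Capitals mark matches to MEF2 (the A/T-rich site of a muscle transcription factor family), to the CArG box (the site of serum response factor), or to the E-boxes CAGCTG and CAGGTG (sites of the myogenic factors), all searched on both strands. The first 6 have a MEF2 match, Klhl40 has an E-box, Asb2 has a CArG box, and Klhl9, outside the muscle list, has no such match. They lie at chr2:69669990-69670169 (Klhl41, plus strand), chr14:50897434-50897613 (Klhl33, minus), chr6:88627380-88627559 (Kbtbd12, minus), chr14:26894484-26894663 (Asb14, plus), chr11:102268621-102268800 (Asb16, plus), chr1:90014617-90014796 (Asb18, minus), chr9:121777477-121777656 (Klhl40, plus), chr12:103355952-103356131 (Asb2, minus) and chr4:88722459-88722638 (Klhl9, minus).
Klhl41: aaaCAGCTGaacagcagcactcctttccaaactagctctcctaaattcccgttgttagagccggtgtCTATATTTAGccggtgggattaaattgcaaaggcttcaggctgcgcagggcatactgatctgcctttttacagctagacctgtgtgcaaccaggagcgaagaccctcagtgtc
Klhl33: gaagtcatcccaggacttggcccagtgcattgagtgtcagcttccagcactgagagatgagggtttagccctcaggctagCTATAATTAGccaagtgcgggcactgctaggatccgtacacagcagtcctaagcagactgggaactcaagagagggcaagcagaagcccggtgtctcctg
Kbtbd12: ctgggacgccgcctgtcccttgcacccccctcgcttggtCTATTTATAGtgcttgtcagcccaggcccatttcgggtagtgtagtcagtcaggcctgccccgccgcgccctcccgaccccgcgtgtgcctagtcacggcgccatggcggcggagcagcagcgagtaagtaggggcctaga
Asb14: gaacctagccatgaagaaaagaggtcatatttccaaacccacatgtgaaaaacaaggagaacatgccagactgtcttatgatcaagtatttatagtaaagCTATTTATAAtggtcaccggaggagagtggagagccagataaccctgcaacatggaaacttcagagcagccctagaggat
Asb16: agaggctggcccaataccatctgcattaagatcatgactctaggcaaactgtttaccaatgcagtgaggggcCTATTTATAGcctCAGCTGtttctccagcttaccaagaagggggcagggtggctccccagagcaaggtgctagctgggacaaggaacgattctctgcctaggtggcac
Asb18: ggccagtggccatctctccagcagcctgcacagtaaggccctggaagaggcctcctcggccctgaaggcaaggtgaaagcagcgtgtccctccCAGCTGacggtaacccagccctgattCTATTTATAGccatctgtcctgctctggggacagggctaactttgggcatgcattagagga
Klhl40: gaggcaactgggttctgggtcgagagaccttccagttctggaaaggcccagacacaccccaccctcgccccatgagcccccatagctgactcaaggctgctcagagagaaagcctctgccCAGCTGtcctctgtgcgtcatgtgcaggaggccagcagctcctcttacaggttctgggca
Asb2: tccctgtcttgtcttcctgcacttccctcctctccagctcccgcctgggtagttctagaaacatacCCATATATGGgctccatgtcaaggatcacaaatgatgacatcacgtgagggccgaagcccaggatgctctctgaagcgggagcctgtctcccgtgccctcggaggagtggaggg
Klhl9: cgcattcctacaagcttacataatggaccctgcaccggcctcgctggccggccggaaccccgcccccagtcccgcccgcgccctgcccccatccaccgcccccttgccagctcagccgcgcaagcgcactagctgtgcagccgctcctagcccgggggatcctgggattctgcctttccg

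A MEF2 match was found in 6 of 13 muscle adaptors (46.2%) and in 0 of 33 other members, against 2.73% of 15686 matched promoters of all genes and 1.73% of those whose gene had a promoter region. Its first base lay 30 bases before the start in Asb14, 58 in Asb16, 11 in Asb18, 91 in Kbtbd12, 50 in Klhl33 and 63 in Klhl41. In 4 of these (Asb14, Asb16, Asb18 and Kbtbd12) the match overlapped a TATAAA box, so the 2 motifs cannot be counted apart there. TATAAA was found in 7 of 13 muscle adaptors and 3 of 33 other members, against 12.9% of all promoters. The promoters set beside the muscle adaptors were not matched to them for base content, which differed as described below for CpG.

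The other muscle motifs occurred in both groups or in few genes. The E-box CAGCTG was found in 5 of 13 muscle adaptors (38.5%) and 6 of 33 others (18.2%), against 15.2% of all promoters. CAGGTG was found in 4 (30.8%) and 4 (12.1%), against 19.6%. Both E-boxes were thus found in a larger share of the muscle adaptors, though in few genes. In Klhl41, CAGCTG lay 127 bases before the start and CAGGTG 198 bases before it, outside the printed stretch. In Klhl40, CAGCTG lay 10 bases before the start. The CArG box was found in Asb2, 64 bases before the start, in Asb5, 211 bases before it, and in no other matched member (1.39% of all promoters). The TEAD site CATTCC (1 of 13 and 6 of 33, against 13.1%) and the MEF3 site TCAGNTTC (1 and 3, against 5.79%) were not more frequent in the muscle adaptors. A match is a description of the letters and not evidence of binding.

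CpG content was low in the muscle adaptors. The 13 muscle adaptors had a median of 5 CpG dinucleotides in 300 bases and the 33 others 22, against 15 over all promoters. Fewer than 10 were found in 12 of 13 muscle adaptors, Kbtbd12 with 32 being the exception, and in 7 of 33 others, against 39.9% of all promoters and 17.4% of those whose gene had a promoter region. The GC box GGGCGG was found in 1 of 13 muscle adaptors and 25 of 33 others (48.8% of all promoters). The CCAAT box was found in 3 and 9 (38.3% of all promoters), and the NRF1 site in 1 and 5 (9.38%).

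**Figure D2:**
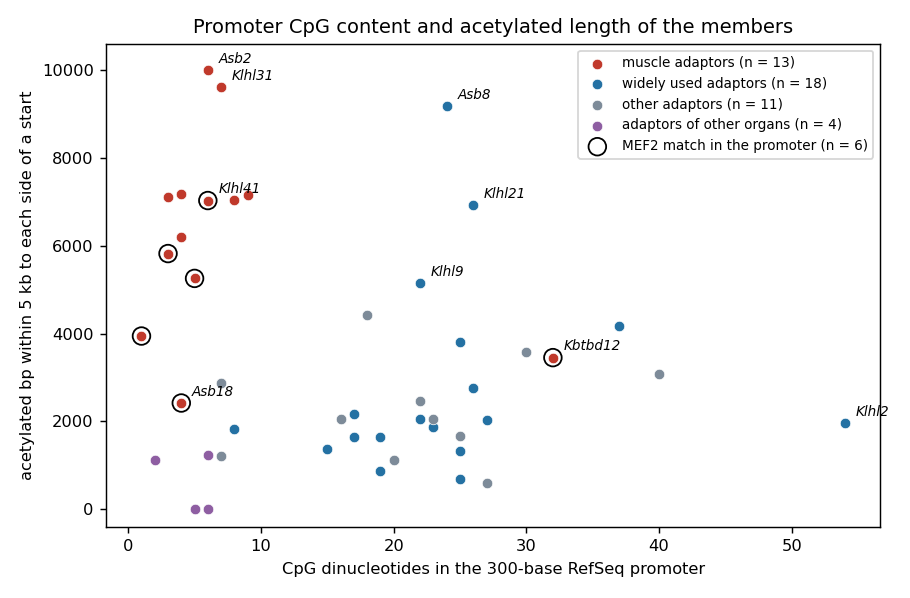
Acetylated bp around the start (y axis) against the number of CpG dinucleotides in the 300-base promoter (x axis) for the 46 members with a RefSeq promoter, coloured by role, with rings around the 6 that have a MEF2 match. All but 1 of the muscle adaptors lie below 10 CpG, and for 40 of the 46 both values refer to starts within 100 bp of each other, but the Asb15 promoter is 27928 bp and the Asb6 promoter 2033 bp from the start plotted.

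Among the muscle adaptors of the Kelch families, Klhl31, whose product acts on filamin C, had the longest stretch in the replicated list and in replicate 2. It had 5820 acetylated bp in replicate 1, 9098 bp in replicate 2 and 9622 bp in the replicated list, so the replicates differed widely, and in replicate 1 Klhl30, Klhl41, Klhl38, Kbtbd13 and Klhl40 were longer. Its start region (chr9:77634438-77641925, signal value 40.4) was joined by a separate region upstream of the gene at chr9:77626285-77631901 with a signal value of 28.0. Most of this upstream region lies more than 5000 bp from the start. Acetylation between the 2 regions makes up part of the 4622 bp counted upstream of the start. The signal value is the authors' measure of enrichment and ranks regions within a list.

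The adaptors of the thin filament were acetylated over most of the window. Klhl40, which stabilises nebulin and leiomodin 3, had 5832 bp in replicate 1, 7251 bp in replicate 2 and 7192 bp in the replicated list, with a signal value of 39.1. Klhl41, its close relative, had 6707, 7062 and 7033 bp in the same order, with a signal value of 40.4. Both had 1 wide region over the start, chr9:121775087-121781512 at Klhl40 and chr2:69667765-69674797 at Klhl41, and their other regions within 5000 bp of the start or over the body had signal values of 5.02 or less. Kbtbd13, also a nemaline myopathy gene, had 6155, 7116 and 7149 bp, and a single region (chr9:65388161-65394829, 37.6) covered 100% of its short gene body.

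Klhl38 and Klhl30, less well characterised, were as long. Klhl38 had 6334 bp in replicate 1, 7940 bp in replicate 2 and 7820 bp in the replicated list (signal value 32.7). Klhl30 had 6799, 6965 and 7845 bp, with a signal value of 24.0. The remaining Kelch members of the list were shorter. Klhl33 had 4255, 4984 and 5259 bp, with a signal value of 43.6. Kbtbd12 had 2388, 3913 and 3454 bp, with 38.5, and 0 bp around the 5′ end of its gene model.

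Among the muscle Asb genes, Asb2, whose product sends filamins to degradation, was acetylated over all 10000 bp in both replicates and in the replicated list. Its start lay in a region of 16179 bp (chr12:103349883-103366061, signal value 44.9) that ran from −10060 to 6118 bp relative to the start. Further regions followed within the gene, 14 in all, which covered 76.7% of it. A second annotated start, 17628 bp from the first, had 8422 bp but a signal value of only 5.08.

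Asb15 and Asb5 had their acetylation spread over several strong regions. Asb15 had 6793 bp in replicate 1, 7197 bp in replicate 2 and 7125 bp in the replicated list. Its 2 starts, 27928 bp apart, had 5465 and 7125 bp. A start of Ndufa5, a gene of respiratory complex I, lies 131 bp from the first. An intronic region of Asb15 (chr6:24539537-24545119, 32.3) matched the values of 31.2 and 27.5 at the starts. In each replicate it lay just below the first start, with 22.7 against 23.6 in replicate 1 and 35.35 against 35.37 in replicate 2.

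Asb5 had 5569, 7000 and 7050 bp around its coding start (25.3), and 2641 bp around the 5′ end of its gene model. Regions of 26.5 (chr8:54576127-54582689, over exons) and 25.9 (chr8:54568389-54575405, intronic) lay in its body, close to the value at its start. Another region, of 31.1, within the gene model covers the start of another gene, Spcs3.

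The other muscle Asb genes were shorter, with lengths given again for replicate 1, replicate 2 and the replicated list. Asb10 had 5034, 6384 and 6196 bp (signal value 36.3), and Asb14 had 4034, 5928 and 5825 bp (31.8). Asb16 had a narrower stretch of 3170, 4378 and 3946 bp but a signal value of 45.1, close to the 44.9 of Asb2. Asb18 had 2423, 2277 and 2420 bp (27.01). It was among the shortest of the muscle list, though a region of 7346 bp (chr1:89996139-90003484, 21.7) lay over exons 11093 bp downstream of its start.

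**Figure D3:**
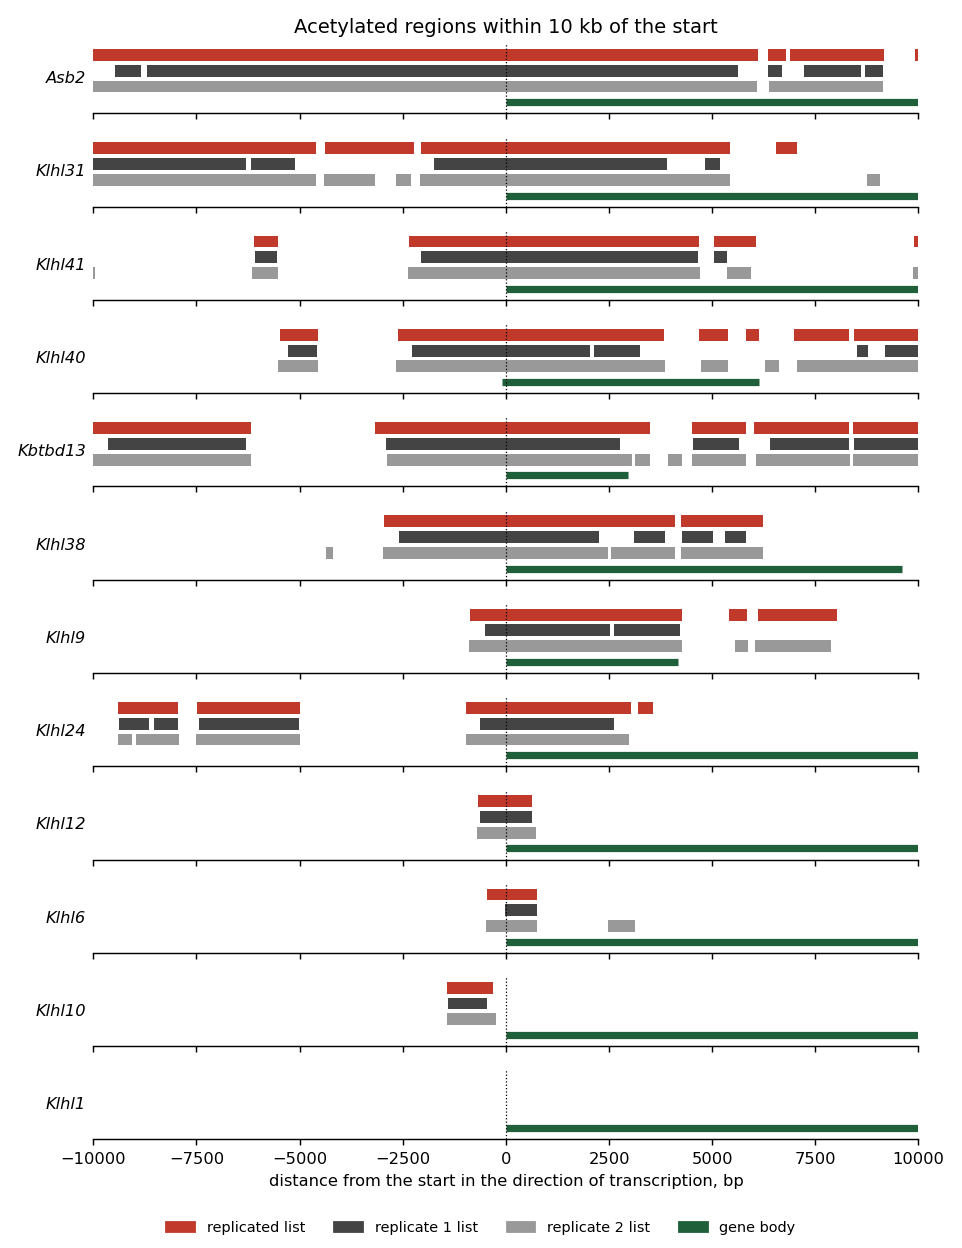
Regions of the replicated list and the 2 single-replicate lists (rows of bars) within 10 kb of the start, by distance in the direction of transcription (x axis, bp), for 6 muscle adaptors (upper panels), 3 widely expressed or other adaptors (Klhl9, Klhl24, Klhl12) and 3 adaptors of other organs (Klhl6, Klhl10, Klhl1), with the gene body below. The bar at the Asb2 start spans 16179 bp, that of Klhl10 stops before the gene, and Klhl1 has none.

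Length and height of a start region did not rank the members alike. The 5 members with the highest signal value within 1000 bp of a start were all outside the muscle list: Klhl9 (60.6), Klhl24 (60.3), Asb8 (53.2), Kbtbd2 (49.4) and Klhl21 (45.7). In replicate 1 Kbtbd4, also outside it, had 37.3, above Klhl21 with 36.5. Klhl9, which acts on Aurora B in cell division and is mutated in a human distal myopathy, had 47.8 in replicate 1 and 60.8 in replicate 2 over 4648 and 5154 bp. Klhl24, an adaptor for keratin 14 in human skin, had 53.4 and 60.3 over 3241 and 3969 bp. Kbtbd2, which removes the PI3-kinase subunit encoded by Pik3r1, had 43.2 and 49.6 over 3731 and 4197 bp.

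A signal value of at least 30 was reached by 27 members, against 28.0% of all genes, and by 12 of 15 muscle adaptors. In replicate 1 it was reached by 13 members, 5 of them muscle adaptors, against 18.0% of all genes. Over the members with a promoter region the median signal value was 31.5, against 27.8 over all such genes. It was 37.6 for the muscle adaptors and 26.0 for the others, a smaller gap than in length. The lists differ in scale between replicates, with medians over all genes with a promoter region of 22.5 in replicate 1 and 29.3 in replicate 2, so signal values are read within a list only.

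**Figure D4:**
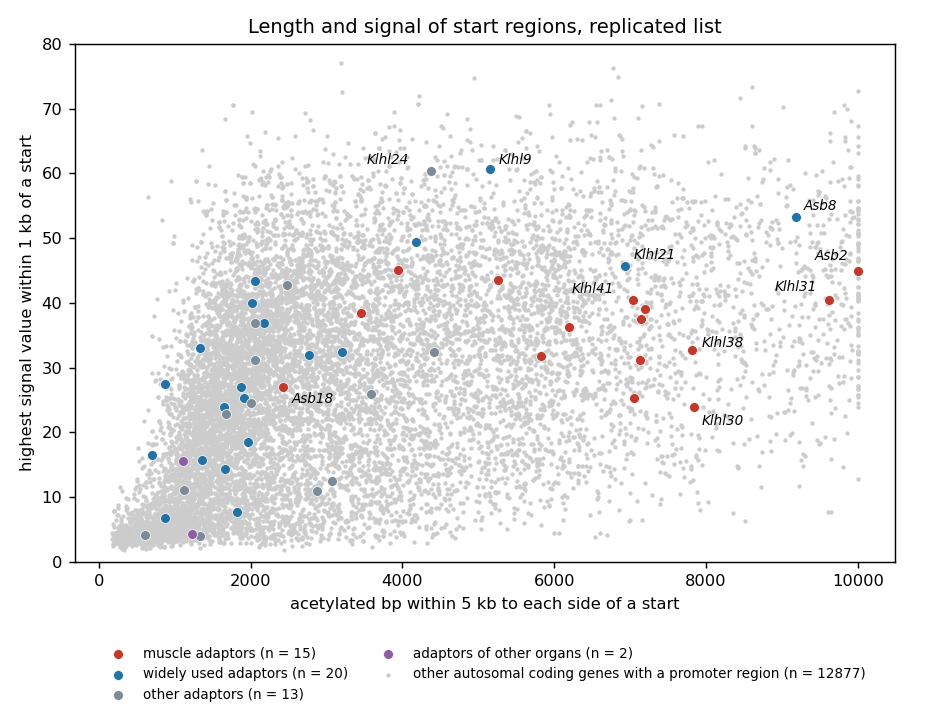
Highest signal value within 1 kb of a start (y axis) against acetylated bp around the start (x axis) in the replicated list, for the 50 members with a promoter region, coloured by role, and for all other autosomal protein-coding genes with one (grey). Klhl9 and Klhl24 lie highest at moderate lengths, and Asb2 and Klhl31 lie farthest right.

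Outside the muscle list 3 members passed 5000 bp. Asb8 had 7695 bp in replicate 1, 9430 bp in replicate 2 and 9189 bp in the replicated list. Of its 4 annotated starts the first 2 had 0 bp, and the acetylation lay at the other pair, 19919 and 19966 bp downstream of the first. Klhl21, another adaptor for Aurora B, had 6632, 7244 and 6928 bp, and Klhl9 had 4648, 5154 and 5153 bp.

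The widely used adaptors had a promoter region in 20 of 21 and most were narrow, the median being 1963 bp. Klhl12, which ubiquitylates the COPII coat protein Sec31a, had 1281, 1422 and 1331 bp, of which 688 bp lay upstream and 643 bp downstream of the start in the replicated list. Klhl20, an adaptor for Dapk1, had 1262, 1361 and 1364 bp. Kbtbd6 and Kbtbd7, partners in the degradation of Tiam1, had 866 and 870 bp in the replicated list, and Kbtbd8 had 699 bp. These examples, and the members of the next paragraphs outside the muscle list, were picked after their values were seen.

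The 1 widely used adaptor without a promoter region was Asb6, which had 2437, 3709 and 3800 acetylated bp around its start. A region at chr2:30827196-30828725 (signal value 18.8) lay 1608 to 3137 bp downstream of the GENCODE start, and the rest of the acetylated bp lay upstream of the gene, near Prrx2. The RefSeq start of Asb6 lies 2033 bp from the GENCODE start and within this region in the replicated list and in both replicates, so the missing call depends on which start is used.

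Of 14 members in none of these lists, 13 had a promoter region, and the median length was 2055.5 bp. Klhl35 had none: 1204 bp lay downstream of its start in the replicated list, 806 bp in replicate 1 and 0 bp in replicate 2. Klhl32 had 605 bp in the replicated list with a signal value of 4.08 and 0 bp in each replicate, so its call rests on the combined data. Kbtbd11 was called in both replicates, at 257 bp in the first and 1399 bp in the second, with signal values of 3.79 and 4.03.

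The 5 adaptors known from other organs had the lowest median length of the role lists, 0 bp. This did not hold for each gene, since Klhl6 and Klhl10 were longer than Kbtbd8 with 699 bp. Asb17, a testis gene, Klhl1, a neuronal gene, and Klhl14 had 0 bp within 5000 bp of a start in the replicated list and in both replicates. Klhl10, needed in spermatids, was called with 1113 bp, but the region lay wholly upstream, from −1423 to −311 bp relative to the start. It lay within 1000 bp of the start of Nt5c3b, and no region lay over the Klhl10 body. Klhl6, an adaptor of B lymphocytes, had 775 bp in replicate 1, 1890 bp in replicate 2 and 1232 bp in the replicated list, at a signal value of 4.23. Of the leukocyte genes among the macrophage markers, Ptprc and Adgre1 had 0 bp, and Csf1r and Cd68 had 2300 and 5310 bp; the part of such cells in the Klhl6 region was not tested.

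In 9 members a promoter region also lay within 1000 bp of the start of another protein-coding gene: Asb15 with Ndufa5, Asb3 with Erlec1, Asb7 with Lins1, Kbtbd3 with Aasdhppt, Kbtbd4 with Ndufs3, Klhl10 with Nt5c3b, Klhl18 with Kif9, Klhl28 with Togaram1 and Klhl9 with Gm26566. The share of all genes with such a neighbour was not computed. The acetylation there cannot be divided between the genes.

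Acetylation lay more on the gene side of the start, at a share near that of all genes. Of the 52 members with any acetylated bp, 39 had more downstream than upstream, against 67.1% of all such genes, and 12 had more upstream. Among them 13 of 15 muscle adaptors had the larger part downstream, Asb2 being covered on both sides in full and Asb15 having more upstream (4823 bp) than downstream (2302 bp). The widest region at a start had a median width of 6152 bp in the muscle adaptors and 1858 bp in the 35 others with one.

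Gene body cover, which counts many of the same regions as the acetylated length, differed in the same direction. The median body was covered over 13.4% among the members (8.78% by replicate 1 and 14.3% by replicate 2), against 4.55% over all genes (3.13% and 4.61%). At least 50% was covered in 12 members, against 7.84% of all genes, and 9 of the 12 were muscle adaptors. By replicate 1 alone it was 5 members, 3 of them muscle adaptors, against 5.44% of all genes. The muscle adaptors had a median of 52.8% and the others 6.98%. Klhl9 and Kbtbd13 were covered over 100% of the body, Klhl40 over 79.4% and Asb2 over 76.7%. A short gene is covered by its start region alone, so this share falls with gene length. The muscle adaptors and the others were not matched for gene length, so their gap in body cover is a description too.

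In 9 of the 51 members with a region over the body, the strongest one was not at the start in the replicated list. In 6 of them this held in both replicates as well. The share over all genes was not computed. Asb6 and Klhl35, which had no promoter region, fall among the 9 by definition. In Asb3 and Asb5 the strongest region lay within 1000 bp of the start of another gene, Chac2 (32.6) and Spcs3 (31.1). Klhl29 had 37 regions over its body, and its strongest (chr12:5242634-5248133, signal value 33.7) was intronic, against 12.5 at the first start. Its second annotated start, 84301 bp from the first, had 0 bp. Klhl3, which with Klhl2 removes the WNK kinases that set salt transport, had 7.75 at the start and 23.7 in an intronic region 44505 bp downstream (chr13:58064303-58069087). Over all members, 59 regions at starts had a median signal value of 27.4, and 119 intronic regions had 4.38.

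The replicates shared most of the regions called in the less extensive list. Of 202 replicate 1 regions over the members' bodies, 93.6% were found in replicate 2, overlapping by at least 50% of the shorter region, against 92.9% over all genes. Of 221 replicate 2 regions, 63.8% were found in replicate 1, against 63.3%. Shared replicate 2 regions had a median signal value of 13.0 and unshared ones 3.8.

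The other parts of these ligases were acetylated at nearly all starts. Over all genes 62.1% had a promoter region and the median length was 1524 bp. Of the CUL3 core and neddylation genes 11 of 11 had a promoter region and the median length was 3860 bp. Longest were Dcun1d1 (8462 bp) and Dcun1d3 (7355 bp), both helpers of cullin neddylation, and Cand2 (5631 bp), an exchange factor known from muscle. In replicate 1 Dcun1d1 had 5052 bp and Dcun1d3 6371 bp, so their order depends on replicate 2. Of the CUL5 and CUL2 core 8 of 8 had one and the median was 2463 bp, Elob, Elongin B, being longest (3658 bp). Of the COP9 signalosome, which removes Nedd8 from cullins, 9 of 9 had one and the median was 2016 bp, Cops3 being longest (3815 bp). The core was thus acetylated over shorter stretches than the muscle adaptors in these medians.

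Related adaptors and the adaptors' targets were acetylated at nearly all starts too, against 62.1% of all genes. Other BTB-Kelch genes had a promoter region in 6 of 6 and a median of 2916.5 bp. The longest was Ivns1abp (6462 bp), and Keap1, which restrains the oxidative stress factor Nfe2l2, had 3621 bp. Other SOCS box genes had one in 19 of 19 and a median of 4382 bp, the longest being Spsb2 (9505 bp), Wsb2 (7202 bp) and Socs7 (5681 bp). In replicate 1 Socs3 (4837 bp) was longer than Socs7 (3927 bp). Of 17 partners and substrates 16 had one, and their median over all 17 was 4771 bp. Ckmt1, a mitochondrial creatine kinase, had none. The longest were Des, the filament protein desmin (9728 bp), Flnc, filamin C (8266 bp), and Neb, the thin filament ruler nebulin (8253 bp). Lmod3, the other client of Klhl40, had 4334 bp.

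**Figure D5:**
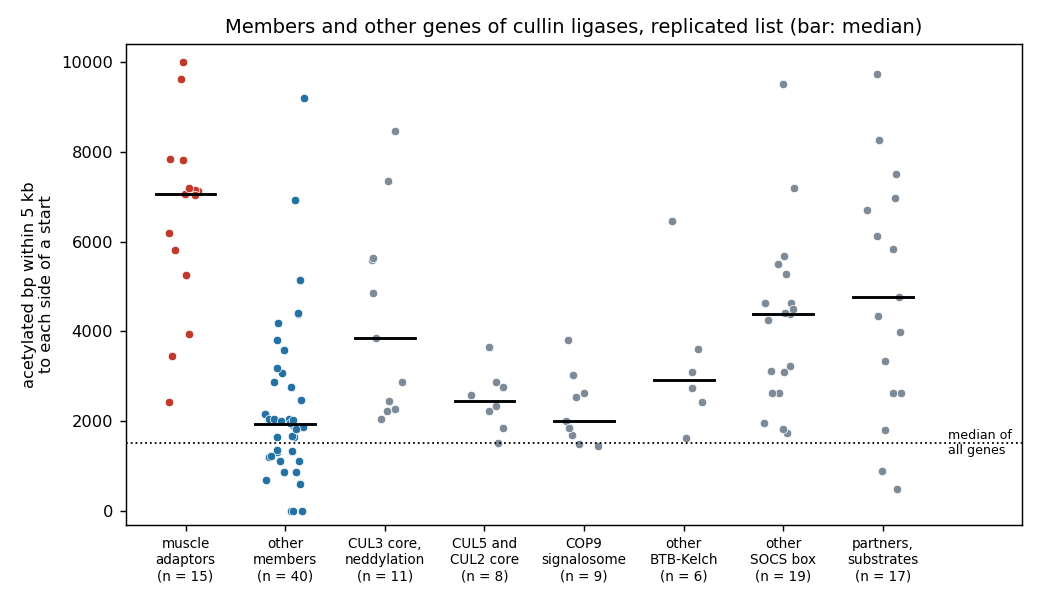
Acetylated bp around the start in the replicated list (y axis) for the muscle adaptors, the other 40 members and 6 lists of other ligase genes (x axis), each point a gene, the bar the median and the dotted line the median of all genes. The medians are 7050 bp for the muscle adaptors, 1937.5 bp for the other members and 2016 to 4771 bp for the 6 lists.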

How the data were processed

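H3K27ac was measured by ChIP-seq in 1 group of gastrocnemius samples, with 2 biological replicates. The authors deposited 4 peak lists in narrowPeak format on mm10 and, per the deposited descriptions, made 1 from each replicate, 1 from the pooled alignments and 1 replicated list. The deposited signal value and −log10 q of each region are the authors' own, and no control was analysed here. No source used here names the peak caller.

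From these lists, promoter regions (1000 bp), acetylated lengths (5000 bp to each side, largest over annotated starts) and gene body cover were computed with Python 3.11.15, numpy 2.4.6 and pandas 2.3.3 and checked on simulated data. Promoter sequences came from RefSeq (GRCm38.p6), of which 40 of 46 started within 100 bp of the GENCODE start used. Named with full values were the muscle list, the 10 longest members, those with 0 bp within 5000 bp of a start, those called in 1 replicate (0) and the 5 highest signals. From other lists the text names at most the 3 longest and those without a promoter region, besides a few genes it singles out. Members and lists were chosen with earlier results of these data known. One gene matching the symbols is not reported here. Alternatives were the pooled list, each replicate alone, −log10 q of at least 5, other windows, the 5′ end alone and other overlaps. Biological replicates are pooled samples, so their spread covers 2 pools.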

Additional observations from a re-analysis of the deposited data

How the results depend on the processing

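Counts of members with a promoter region were recomputed over all 55, over each subfamily and over the muscle adaptors and the others. All 46 recomputed counts stayed within 1.5 times their main values. Most members had a promoter region already, so no count could have risen past that limit. Only a large fall would have passed it, so this tally is a weak check. For the 55 members the 50 promoter calls became 50 with a promoter of 500 bp, 52 with 2000 bp and 47 from the 5′ end of each gene model. Lengths moved with the window. With 2500 bp to each side the medians were 2062 bp over the members and 4802 bp over the muscle adaptors, against 1390 bp over all genes. With 10000 bp they were 3500 bp over the members, 8794 bp over the muscle adaptors, 2674.5 bp over Klhl, 4044 bp over Kbtbd and 5301 bp over Asb genes, against 1835 bp over all genes. From the 5′ end of the gene model they were 2062 bp over the members, 5825 bp over the muscle adaptors, 1327 bp over Kbtbd and 2530.5 bp over Asb genes, against 1441 bp over all genes. From single replicates the median length ran from 1971 to 2319 bp over the members, 2803.5 to 4043.5 bp over Asb genes, 5820 to 7000 bp over the muscle adaptors and 1614.5 to 2054 bp over the others. The body cover ran from 8.78% to 14.3%, 42.9% to 53.7% and 6.14% to 6.39% over the members, the muscle adaptors and the others. Without 5000 bp around starts it was 5.99% over the 50 members with sequence left, 26.7% over 13 muscle adaptors and 0% over 37 others, with a median of 0% over all genes. When 50% of both regions had to overlap, 55.9% of replicate 1 and 51.6% of replicate 2 body regions were shared. Over all genes these shares were 57.4% and 47.5%. Among 18 genes named for length, 70 recomputed lengths moved by less than the spread of the replicates or not at all, and 20 by more. That spread was the standard deviation of the 2 single-replicate lengths, which were themselves among the recomputed lengths. The tally is therefore not an independent measure of how far lengths depend on processing. No paired analysis was possible because there was 1 group and no test. The depth of the lists is unknown, so a missing region means only that none was called. The replicates are 2 pools, and the signal values cannot be compared between lists.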
